A study of Mus musculus with 7 samples.

Results

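The 10 genes described here encode the core of transforming growth factor beta (TGF-beta) signalling: the ligand Tgfb1, the receptors Tgfbr1, Tgfbr2 and Tgfbr3, the signal transducers Smad2, Smad3 and Smad4, the inhibitor Smad7, and the corepressors Ski and Skil. They were taken by symbol from the 39179 Ensembl gene IDs of the deposited table, and all 10 were found and tested. None of them differed between Jmjd1c-deleted and control cells past the threshold over all genes. The nearest was the coreceptor gene Tgfbr3, with a level 1.56 times higher, followed by Ski and Tgfbr2.

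The cells were LSK cells, which lack lineage markers, carry Sca-1 and Kit, and hold the stem cells and multipotent progenitors of mouse blood. They were sorted by flow cytometry from the bone marrow of 7-week-old mice labelled C57/BL6 and profiled by RNA-seq. Both groups carried Vav1Cre, a Cre recombinase under the Vav1 promoter, which is active throughout the blood lineages and also in some endothelial cells. The 4 control libraries came from mice labelled with Vav1Cre alone, while the 3 Jmjd1c libraries carry the genotype Jmjd1c f/f Vav1Cre, a floxed Jmjd1c gene on which Cre acts. Whether the controls carried floxed alleles, and whether each library is a separate animal, is not given in the sources used here, so p-values reflect the variation among these 7 samples, part or all of which may be technical.

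TGF-beta binds a pair of serine/threonine kinase receptors. The type II receptor captures the ligand and phosphorylates the type I receptor, which in turn phosphorylates SMAD2 and SMAD3. These join SMAD4, enter the nucleus and act on target genes, while SMAD7 blocks the type I receptor and the SKI proteins silence SMAD complexes on DNA. In blood, TGF-beta is best known for holding stem cells out of the cell cycle.

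Values are normalized read counts, that is, the reads of a gene divided by a size factor for each library. Recovered reads in genes ran from 4303712 to 6436519 per library. Jmjd1c itself was at 458 to 516 in the control libraries and 244 to 294 in the Jmjd1c libraries, which gave -0.89 ± 0.09 on the log2 scale (limma, adjusted p = 0.00407, and 0.117 without an intensity trend). A count over all exons does not measure the deleted part alone. All 15 markers of LSK and stem cells were detected, and they summed to 29246 to 33809 in control and 30100 to 33825 in Jmjd1c libraries. Markers of mature cells were detected too. The macrophage and monocyte list of 18, none at 0 in all libraries, summed to 33821 in control 4. The other controls held 12054 to 15354, and Jmjd1c libraries 8810 to 14540. The 9 basophil and mast cell markers summed to 5796 to 8976 in control and 2243 to 4740 in Jmjd1c libraries, and the 11 mature neutrophil markers to 9958 to 13392 and 6911 to 9928. Sums of both lists were thus lower in every Jmjd1c library than in any control, for neutrophils only just. No neutrophil marker was called. S100a8 was at 3297 to 4651 in control and 2204 to 3048 in Jmjd1c libraries, and S100a9 and Camp were likewise lower in every Jmjd1c library. The other genes of this list overlapped, Ngp among them, at 2773 to 3925 in control and 2002 to 3022 in Jmjd1c libraries. The 10 B and plasma cell markers summed to 17472 to 23307 in control libraries, 11426 and 9561 in Jmjd1c 1 and 2, and 28814 in Jmjd1c 3, which stood apart from its group. In bulk samples, fewer cells of a type and less RNA per cell cannot be told apart.

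**Figure D1:**
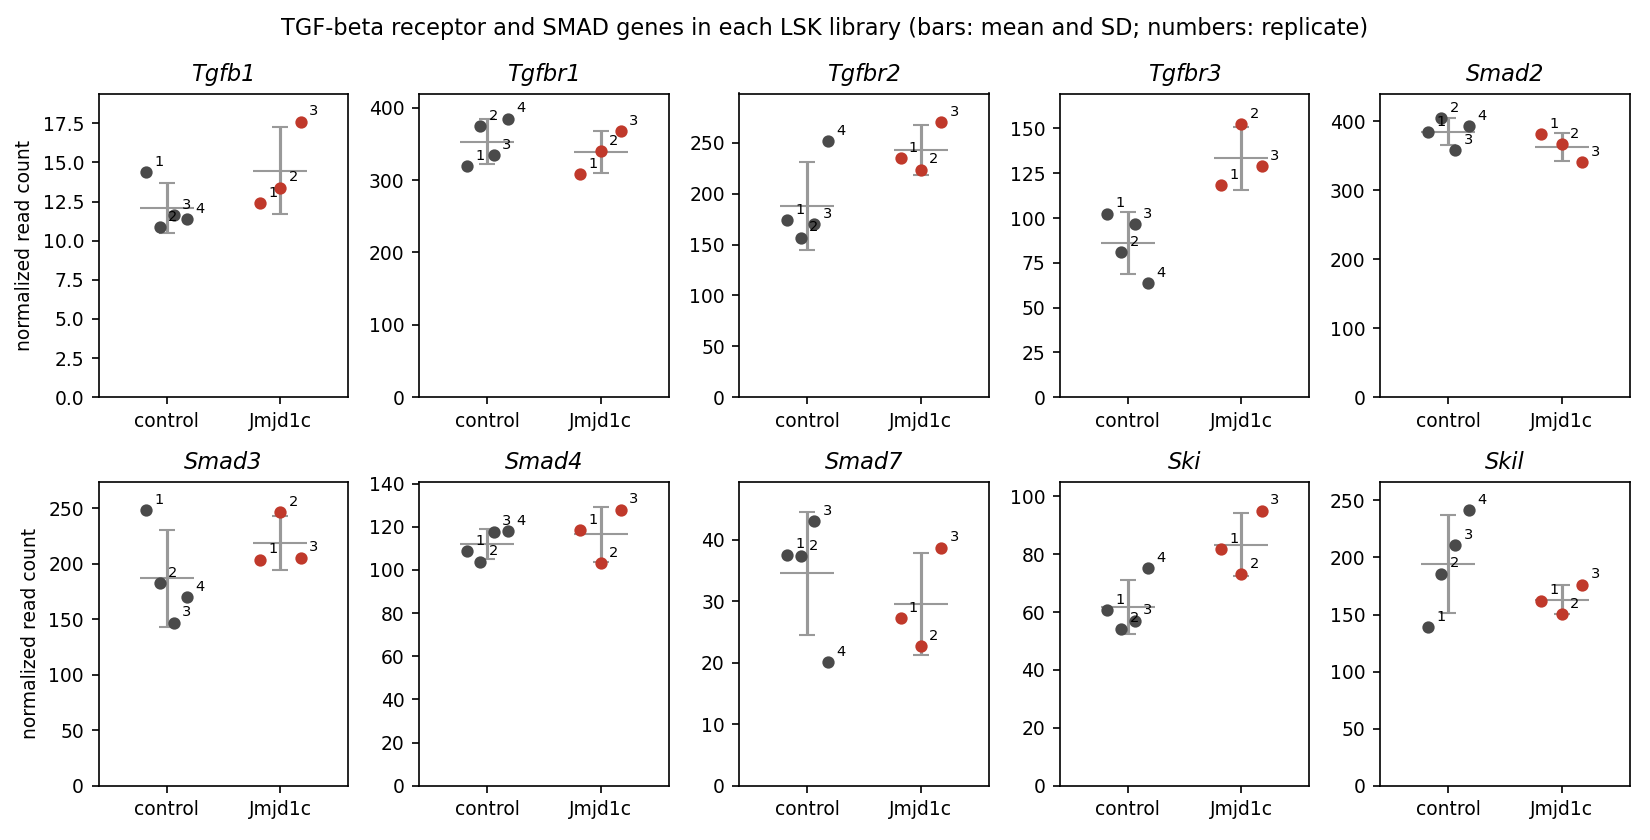
Normalized read counts of the 10 genes (y axes, each starting at 0) in each control library (grey points) and each Jmjd1c library (red points); small numbers give the replicate, and bars the mean and SD. Tgfbr3 is the gene whose groups do not overlap, at 63.8 to 102 in control and 118 to 153 in Jmjd1c libraries, while control 4 sits among the Jmjd1c libraries for Tgfbr2.

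Levels of different genes were compared per kb of exon, over the control libraries. On this scale Tgfbr1 was the highest of the 10, at 54.0 ± 4.79 normalized read counts per kb (SD, n = 4), and its control libraries did not overlap those of the next gene, Smad2, at 43.8 ± 2.25. Smad3 (33.7 ± 7.84), Smad4 (30.2 ± 1.88), Tgfbr2 (23.0 ± 5.26), Skil (20.05 ± 4.46), Tgfbr3 (13.1 ± 2.65) and Ski (11.1 ± 1.67) followed, and from Smad2 down to Ski each gene overlapped its neighbour in this order. Smad7 (7.65 ± 2.21) and Tgfb1 (2.39 ± 0.315) came last, each below the gene before it in every control library. The median over all tested genes was 37.9 per kb, so Tgfbr1 and Smad2 lay above it and the other 8 genes below. The type I receptor and the receptor-activated SMADs were therefore read more densely than the ligand and the inhibitory SMAD.

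The ligand Tgfb1 (ENSMUSG00000002603; mm10 chr7:25687002-25705077, plus strand) was barely detected. It was at 14.4, 10.9, 11.7 and 11.4 normalized read counts in controls 1 to 4, and at 12.4, 13.4 and 17.6 in Jmjd1c 1 to 3. These rest on 9 to 18 reads per library. The groups overlapped, and the fold change of 0.24 (log2) had a 95% interval of -0.39 to 0.86, which covers either direction (limma, adjusted p = 0.683). Without Jmjd1c 3 it was 0.096 (adjusted p = 0.922). In the GENCODE M21 annotation none of its exon bases lies in an exon of another gene. The other ligands of its kind, Tgfb2 and Tgfb3, had control means of 1.19 and 6.61 and did not pass the filter on low values.

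The type I receptor gene Tgfbr1 (ENSMUSG00000007613; mm10 chr4:47353222-47414931, plus strand) was at 319, 374, 335 and 385 in controls 1 to 4 and at 309, 340.0 and 367 in Jmjd1c 1 to 3. The ranges lay on top of each other, and the log2 fold change was -0.06 with a 95% interval of -0.27 to 0.15 (limma, adjusted p = 0.769). Its partner, the type II receptor gene Tgfbr2 (ENSMUSG00000032440; mm10 chr9:116084293-116175360, minus strand), was at 174, 157, 170.2 and 252 in controls 1 to 4 and at 235, 224 and 270.0 in Jmjd1c 1 to 3. Controls 1 to 3 lay below all Jmjd1c libraries, and control 4 lay within their range. The log2 fold change was 0.39 ± 0.15 (95% interval 0.05 to 0.72), which missed the threshold (limma, adjusted p = 0.194; two-sided exact permutation p = 0.114). Without control 4 it was 0.54 and was called (limma, adjusted p = 0.0382), as were 202 of all 12813 tested genes. Control 4 is the library with the high sum of macrophage and monocyte markers, and the part of those cells in its Tgfbr2 level was not tested.

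The bases just before the start sites of both signalling receptors are shown because these partners form the signalling pair: the 250 bases before the RefSeq start of Tgfbr2 (chr9:116175364-116175613, minus strand) and of Tgfbr1 (chr4:47352972-47353221, plus strand), from RefSeq's GRCm38.p6 tables, 5′ to 3′. Capitals mark the SMAD box CAGAC or its reverse complement GTCTG and the GC box GGGCGG or its reverse complement CCGCCC, searched on both strands.
Tgfbr2: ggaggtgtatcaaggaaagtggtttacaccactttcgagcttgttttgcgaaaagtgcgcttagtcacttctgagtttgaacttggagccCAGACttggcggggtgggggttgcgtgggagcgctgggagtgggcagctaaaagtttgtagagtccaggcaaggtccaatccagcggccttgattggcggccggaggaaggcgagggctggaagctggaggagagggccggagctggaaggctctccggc
Tgfbr1: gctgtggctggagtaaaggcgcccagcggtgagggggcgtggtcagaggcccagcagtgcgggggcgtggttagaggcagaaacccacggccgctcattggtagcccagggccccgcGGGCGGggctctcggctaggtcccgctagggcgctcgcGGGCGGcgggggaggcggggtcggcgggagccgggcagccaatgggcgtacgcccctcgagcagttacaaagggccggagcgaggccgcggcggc
The Tgfbr2 window held 1 SMAD box and 0 GC boxes at 58.4% GC, and the Tgfbr1 window 0 SMAD boxes and 2 GC boxes at 74.8% GC. Of 32851 windows of the same length in that table, 42.2% held a SMAD box and 32.7% a GC box, so neither match is rare. The reference table lists a further Tgfbr1 start, not shown, whose window held 1 SMAD box.

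Betaglycan, the coreceptor that presents ligand to the type II receptor, is encoded by Tgfbr3 (ENSMUSG00000029287; mm10 chr5:107106570-107289629, minus strand). Controls 1 to 4 held 102, 80.9, 96.7 and 63.8 normalized read counts, and Jmjd1c 1 to 3 held 118, 153 and 129. Every Jmjd1c library was above every control library. The means were 86.0 ± 17.3 (SD, n = 4) and 133 ± 17.5 (SD, n = 3), a log2 fold change of 0.64 ± 0.17 with a 95% interval of 0.26 to 1.02 (limma, adjusted p = 0.0800). Two-sided exact permutation gave p = 0.0286, the lowest value that 35 allocations of the libraries can reach. DESeq2 on recovered reads called the gene, at 0.63 (adjusted p = 0.0407), and edgeR did not (0.63, adjusted p = 0.0863). The fold change ran from 0.51 without control 4 to 0.73 without control 1. The basophil, mast cell and neutrophil sums given above also separated the groups, the neutrophil sum only just, and the part of those cells in the Tgfbr3 result was not tested. Of the exon bases of Tgfbr3, 4.54% lie in a predicted gene that has no row in the deposited table.

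Tgfbr3 was the only one of the 10 genes whose groups did not overlap. Among all 12813 tested genes, the groups did not overlap in 16.8%, and in 9.74% with Jmjd1c the higher. Of the 10 genes 0 were called in limma, where 1.8% of all tested genes were, and 3 (Tgfbr3, Ski and Tgfbr2) had an unadjusted p under 0.05, as did 19.7% of all tested genes. edgeR called 0 of the 10 and 233 of all 12813 tested genes, and DESeq2 called 1 of the 10 and 590 of all. The median log2 fold change of the 10 genes was 0.14, with 6 genes higher and 4 lower, against a median of -0.01 over all tested genes. Single calls in these libraries are limited by the spread: for Smad7 and Tgfb1 the 95% intervals span over 1 unit on the log2 scale.

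**Figure D2:**
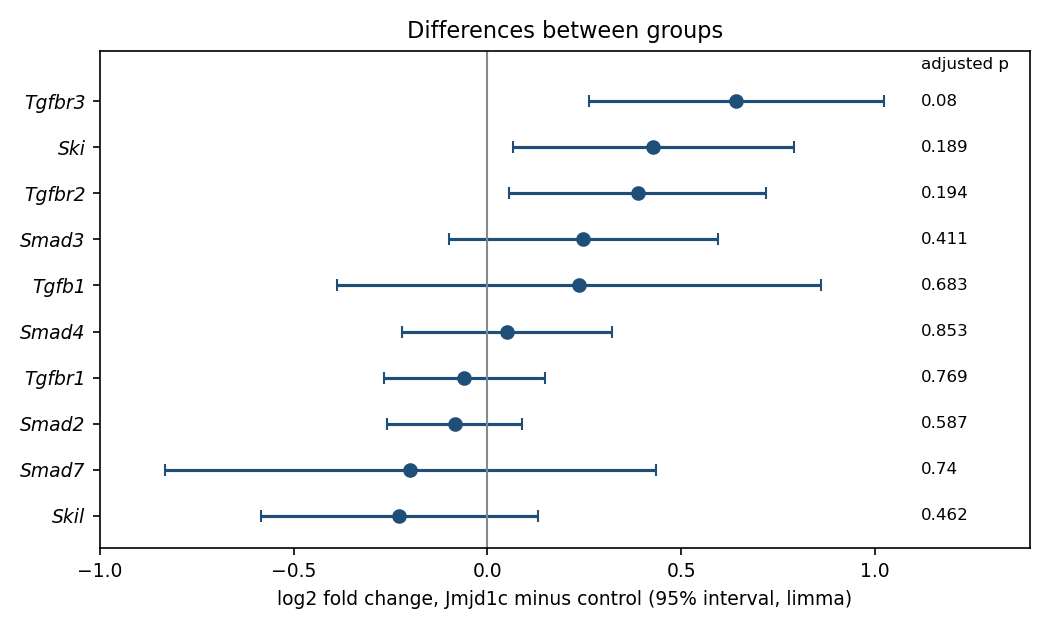
Log2 fold changes of the 10 genes, Jmjd1c minus control, on the log2(value + 1) scale, with 95% intervals from limma (bars) and adjusted p-values over all 12813 tested genes (right). The intervals of Tgfbr3, Ski and Tgfbr2 lie above 0 before adjustment, and no adjusted p is under 0.05.

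The signal transducers showed small differences. Smad2 (ENSMUSG00000024563; mm10 chr18:76241580-76310963, plus strand) was at 385, 404, 358 and 393 in controls 1 to 4 and at 381, 367 and 340.5 in Jmjd1c 1 to 3. Its log2 fold change was -0.08, with a 95% interval of -0.26 to 0.09 (limma, adjusted p = 0.587), the narrowest of the 10, and it was -0.04 without Jmjd1c 3. Smad3 (ENSMUSG00000032402; mm10 chr9:63646767-63757994, minus strand), a transducer that binds DNA directly, was at 248, 182, 147 and 169.6 in controls 1 to 4 and at 204, 246 and 205 in Jmjd1c 1 to 3. Control 1 was the highest library of all, and controls 2 to 4 lay below every Jmjd1c library. The log2 fold change was 0.25 with a 95% interval of -0.10 to 0.59 (limma, adjusted p = 0.411), and it ran from 0.14 without control 3 and 0.16 without Jmjd1c 2 to 0.39 without control 1, none called (adjusted p = 0.685, 0.740 and 0.129). Smad4 (ENSMUSG00000024515; mm10 chr18:73639009-73703780, minus strand), the partner shared by TGF-beta and bone morphogenetic protein (BMP) signalling, was at 104 to 118 in control and 103 to 128 in Jmjd1c libraries. Its log2 fold change of 0.05 had a 95% interval of -0.22 to 0.32 (limma, adjusted p = 0.853).

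Smad7 (ENSMUSG00000025880; mm10 chr18:75367529-75395935, plus strand) encodes the inhibitory SMAD, which TGF-beta itself induces. Its values were 37.6, 37.4, 43.1 and 20.1 in controls 1 to 4 and 27.3, 22.7 and 38.7 in Jmjd1c 1 to 3. Control 4 was the lowest of the 7, and the groups overlapped, with a log2 fold change of -0.20 and a 95% interval of -0.83 to 0.44 (limma, adjusted p = 0.740). Without control 4 the fold change was -0.43, without Jmjd1c 3 -0.41, without control 3 -0.08 and without Jmjd1c 2 -0.03, none called. These values rest on 22 to 47 reads per library.

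The corepressor genes had fold changes of opposite sign. Ski (ENSMUSG00000029050; mm10 chr4:155154075-155222592, minus strand) was at 60.8, 54.3, 57.1 and 75.2 in controls 1 to 4 and at 81.9, 73.2 and 95.1 in Jmjd1c 1 to 3. Only control 4 reached the Jmjd1c range, passing Jmjd1c 2. The log2 fold change was 0.43 ± 0.17 with a 95% interval of 0.07 to 0.79, and did not pass (limma, adjusted p = 0.189; two-sided exact permutation p = 0.0857). It was 0.30 once GC content and length were corrected for (adjusted p = 0.360) and 0.52 without control 4 (adjusted p = 0.133). Skil (ENSMUSG00000027660; mm10 chr3:31095058-31122577, plus strand), which encodes the SKI relative SnoN and is a TGF-beta target, was at 139, 186, 211 and 241 in controls 1 to 4 and at 162, 150.4 and 176 in Jmjd1c 1 to 3. The control libraries spread to both sides of the Jmjd1c libraries, with a log2 fold change of -0.23 and a 95% interval of -0.58 to 0.13 (limma, adjusted p = 0.462). It was -0.38 without control 1 (adjusted p = 0.141) and -0.11 without control 4 (adjusted p = 0.732).

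**Figure D3:**
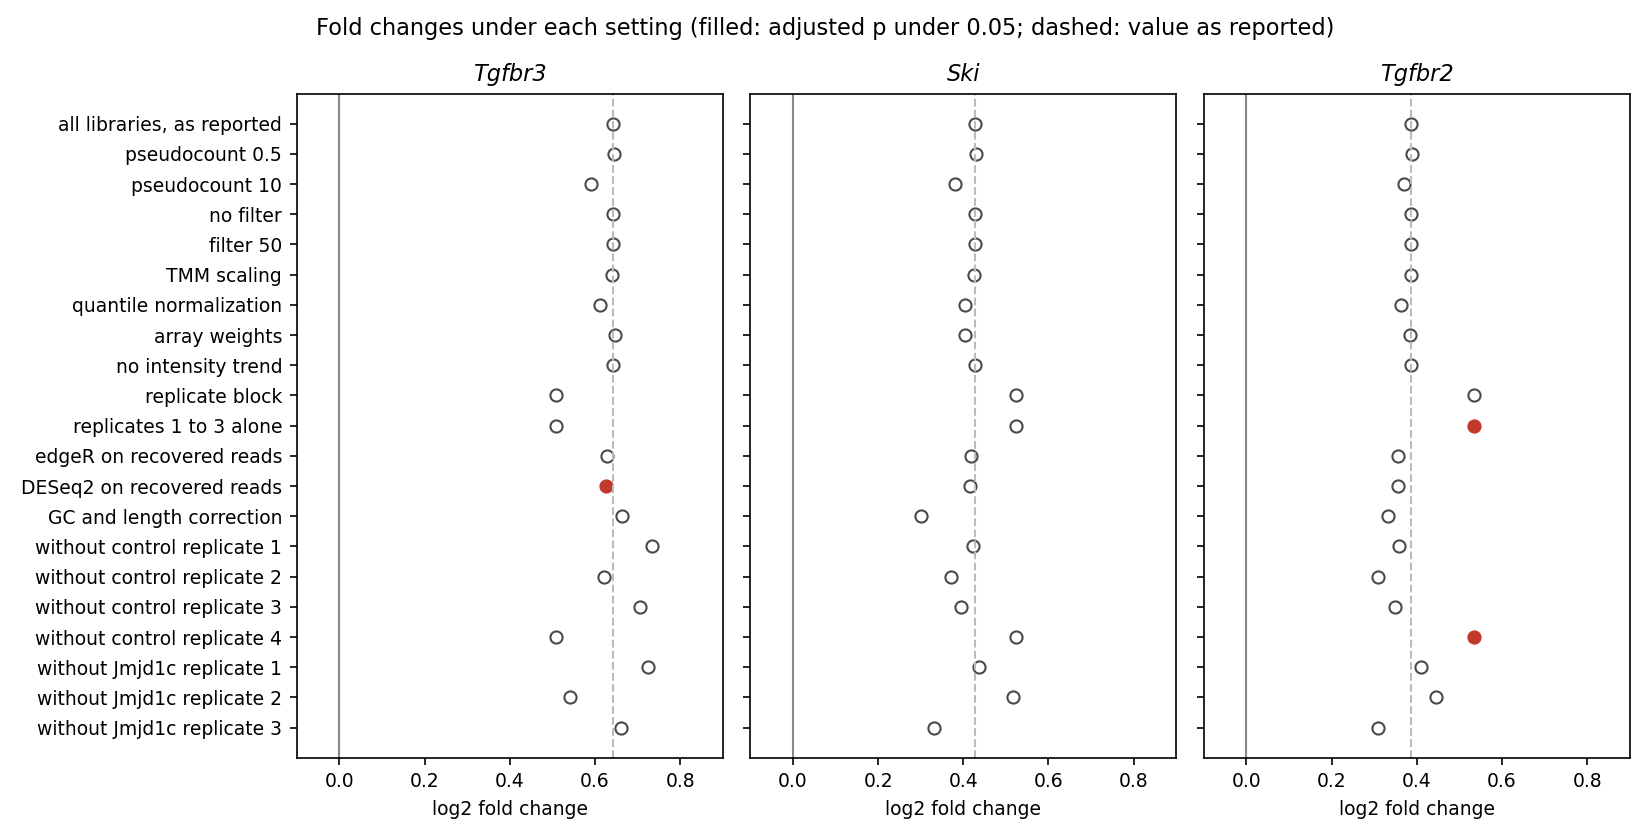
Log2 fold changes of Tgfbr3, Ski and Tgfbr2 (x axes) under each setting or left-out library (y axis); filled red points have an adjusted p under 0.05 and the dashed lines mark the values with all libraries. All points lie above 0; Tgfbr2 is called without control 4, which leaves the same libraries as replicates 1 to 3 alone, and Tgfbr3 in DESeq2.

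Control 4 was the highest or lowest of the 4 control libraries for 7 of the 10 genes, against 5 for control 1, 5 for control 2 and 3 for control 3. It was the highest for Tgfbr1, Tgfbr2, Smad4, Ski and Skil, and the lowest for Tgfbr3 and Smad7. Between genes, the values of Tgfbr2 and Ski followed each other most closely over the 7 libraries (Pearson r = 0.96 on the log2 scale), and Smad3 and Skil were the most opposed (r = -0.89). These are the extremes of 45 pairs that share libraries and size factors, and they are given as a description. The genes whose values were most like those of Tgfbr3 over the 7 libraries, among 9054 genes with a mean of at least 50, were the mitochondrial glycerophosphate dehydrogenase gene Gpd2 (r = 0.985), the chromatin remodelling subunit gene Arid1b (0.985), the mitotic kinesin gene Kif11 (0.977) and the Mediator kinase module gene Med12 (0.974). With 7 points, 132 genes had an r above 0.9 with Tgfbr3.

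Beyond the 10 genes, 124 further genes of the pathway were tested from 10 lists, of which 5 (4.03%) rose and 0 fell, against 1.8% called among all tested genes. Most calls over all tested genes were also rises, with 194 of 231 higher and 37 lower. The median log2 fold change of the 124 genes was -0.01, as for all tested genes. The largest rise was that of Eng, which encodes endoglin, a coreceptor related to betaglycan and a marker of stem cells and endothelium. It was at 312, 336, 248 and 261 in controls 1 to 4 and at 387, 518 and 735 in Jmjd1c 1 to 3. The groups did not overlap, and the log2 fold change was 0.88 ± 0.18 (limma, adjusted p = 0.0406), or 0.64 without Jmjd1c 3 (adjusted p = 0.121). The 12 endothelial and stromal markers summed to 1535 to 1812 in control and 1619 to 1743 in Jmjd1c libraries. Most of that sum is Pecam1, at 837 to 1066 in all libraries. Its other genes went in different directions. Pdgfrb was at 233 to 280 in control and 276 to 369 in Jmjd1c libraries, and Emcn at 149 to 233 and 125 to 146. Col1a1 spread from 2.33 to 104 in control and from 15.3 to 130 in Jmjd1c libraries, and Cdh5 was at or below 2.62. The 10 megakaryocyte and platelet markers summed to 762, 704, 823 and 851 in controls 1 to 4. In Jmjd1c 1 to 3 the sums were 796, 920.2 and 1173, and Eng had the same order over these libraries. Among the controls the order differed: Eng was highest in control 2, where the sum was lowest. The part of these cell types in the Eng result was not tested. In the receptor list, 1 of 10 tested genes rose and 9 did not pass (median 0.15). No other BMP or activin receptor was called, and Tgfbr3 had the fold change nearest to that of Eng.

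Hgs, an endosomal adaptor that helps present SMADs to the receptors, rose by 0.56 ± 0.12, from 218 ± 18.2 to 323 ± 52.7 (limma, adjusted p = 0.0468). It was 1 of 18 tested genes for receptor adaptors and SMAD transport, whose median was 0.21. Among 23 DNA-binding partners and coactivators 3 rose: Runx3, a RUNX factor that works with SMADs (0.67 ± 0.14, from 137 ± 21.5 to 218 ± 27.5), Foxo3, a forkhead factor of stem cell quiescence (0.34 ± 0.07, from 418 ± 22.7 to 528 ± 17.9), and E2f4, a repressor that acts with SMAD3 on Myc (0.48 ± 0.11, from 290.2 ± 37.7 to 403 ± 22.5). Their limma adjusted p-values were 0.0410, 0.0470 and 0.0485, and the median of that list was 0.01. Without control 1, and likewise without control 4, 1 of these 5 genes was called, and with quantile normalization 2. None of the 5 was called without control 2, control 3, Jmjd1c 2 or Jmjd1c 3, nor without an intensity trend, nor with GC content and length corrected for, where Foxo3 had 0.16 and Eng 0.72.

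In the other 7 lists limma called none. Of 7 tested SMAD genes all were among those not passing (median 0.01), and the BMP transducers Smad1 and Smad5 had log2 fold changes of 0.12 and -0.02. The 15 corepressor genes had a median of 0.01, with the kinase gene Hipk2 at 0.47 (limma, adjusted p = 0.0570). Of 15 genes for ubiquitin ligases, deubiquitinases and the SMAD phosphatase (median -0.06), Nedd4l had -0.41 and Trim33 -0.23 (adjusted p = 0.220 and 0.252), and Nedd4l had -0.23 without Jmjd1c 3. The 5 tested ligand and activation genes had a median of 0.05, with the integrin chain gene Itgav at -0.33 and the processing protease gene Furin at 0.36 (adjusted p = 0.221 and 0.277), and Furin had 0.21 without control 3. The 7 tested BMP and activin ligands and antagonists had a median of 0.11, and Twsg1, a secreted BMP modulator, had 0.44 (adjusted p = 0.0510), with Fstl1 at -0.25. Twsg1 was called under 7 of 20 alternatives, DESeq2 among them (adjusted p = 0.0243). Those without control 4 and with replicates 1 to 3 alone are the same fit. Twsg1 was not called without Jmjd1c 2 or without Jmjd1c 3 (limma, adjusted p = 0.244 and 0.169). Of 18 non-SMAD signalling genes (median -0.03), the kinase genes Mapk9 and Map2k7 had 0.34 and 0.28 (adjusted p = 0.169 and 0.227), and Mapk9 had 0.19 without Jmjd1c 3.

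The list of TGF-beta target genes holds both induced and repressed genes. Of 26 tested, 11 had a positive fold change, 0 were called, and the median was -0.03. The leucine zipper gene Tsc22d1 was at 834 to 1107 in control and 1192 to 1214 in Jmjd1c libraries (log2 fold change 0.35; limma, adjusted p = 0.0677), and DESeq2 called it (adjusted p = 0.0176). The early response gene Klf10 was at 1742 to 2051 in control and 1237 to 1741 in Jmjd1c libraries (-0.33; adjusted p = 0.142), and its fold change was -0.17 without Jmjd1c 2.

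**Figure D4:**
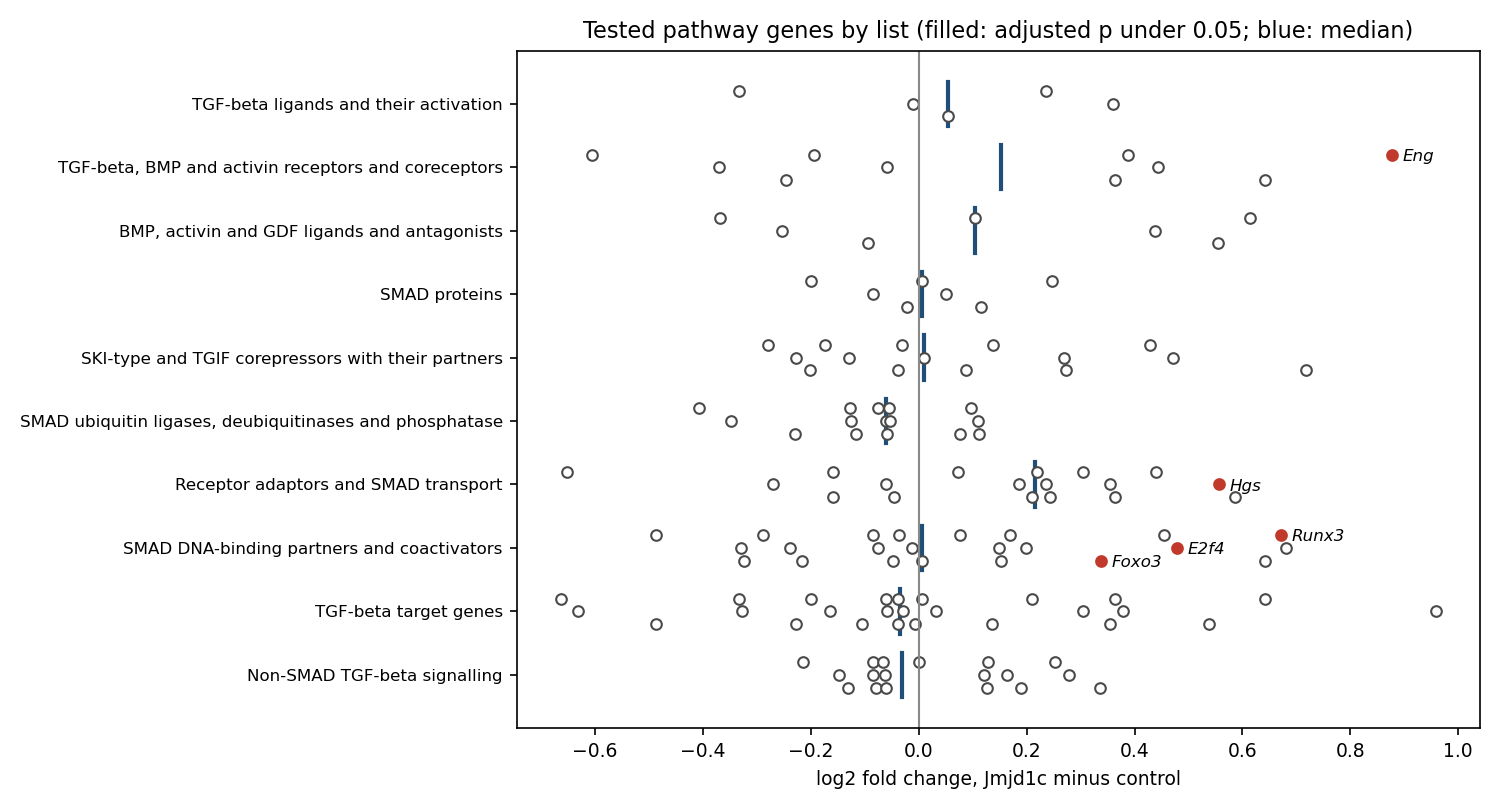
Log2 fold changes, Jmjd1c minus control, of the tested genes in each pathway list (1 point a gene; some genes are in several lists and the 10 genes are included); filled red points passed an adjusted p of 0.05 and are named, and blue lines mark list medians. The 5 called genes, Eng, Hgs, Runx3, E2f4 and Foxo3, all lie above 0, as do 194 of the 231 genes called over all tested genes. List medians run from -0.06 to 0.21.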

How the data were processed

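RNA-seq was available for 4 control and 3 Jmjd1c libraries of LSK cells, made with a low-input SMARTer kit per the labels' protocols. Tools listed in the submitters' processing notes are STAR, HTSeq 0.6.1p1, Trim Galore 0.2.8 and DESeq 1.18.0, with the build mm10. For the annotation release and strand setting, the sources used here give nothing. The deposited signal values are reads divided by a size factor per library: dividing by the step of each column returned whole numbers for 100% of values above 0, within 0.01 of a read.

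Testing used limma-trend (limma 3.58.1, R 4.3.3) on log2(value + 1), which understates the change of low genes, for 12813 genes with at least 10 in at least 3 libraries, with Benjamini-Hochberg adjustment over all of them and a threshold of 0.05. Errors beside means are SDs and beside fold changes standard errors. A table of IDs and symbols matched 37607 of 39179 IDs. Positions, exon length and GC content came from GENCODE M21 on GRCm38. The steps were tested on simulated data. Alternatives were pseudocounts of 0.5 and 10, no filter, a filter of 50, TMM and quantile scaling, array weights, a block for the replicate number, no intensity trend, only replicates 1 to 3, edgeR 4.0.16 and DESeq2 1.42.0 on recovered reads, a correction for GC content and length, an adjusted p threshold of 0.1 and leaving out each library. Members and lists were chosen with earlier results of these data known. Genes named outside the 10 are, for each list, up to 4 called ones or else the 2 smallest p-values, and the 4 genes most like Tgfbr3. Other genes named were chosen after their values were seen. Some items that this rule selects are not reported here.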

Additional observations from a re-analysis of the deposited data

Results flagged for a closer look

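Among the 36 sets of control values examined (the 10 genes, the named pathway genes and the marker sums), 3 had a library far from the other 3 controls, where chance gives about 1 in 20. Nedd4l, a ubiquitin ligase gene, was at 70.8 in control 4 against 80.9 to 82.4 in the other controls. The macrophage and monocyte marker sum was 33821 in control 4 against 12054 to 15354. The T and NK cell marker sum was 2575 in control 1 against 2281 to 2322. Most of that sum is Nkg7, at 1853 in control 1 and 1479 to 1639 in the other controls, followed by Lck, at 554 against 478 to 499. Among the controls, Ncr1 and Klrb1c were also highest in control 1, while the T cell genes Cd3d and Cd3g were lowest there. The remaining genes of the list lay in between. The part of T and NK cells in this sum was not tested. For the 10 genes no control library passed this criterion.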

How the results depend on the processing

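Among the 10 genes, 1 call was made under each of 4 settings and 0 under the rest: Tgfbr2 without control 4 and, with the same libraries, with replicates 1 to 3 alone (0.54), Tgfbr3 with DESeq2 (0.63), and Tgfbr3 at an adjusted p threshold of 0.1. With the libraries left out in turn the count was 0 to 1 and the fold change of Tgfbr2 0.31 to 0.54. Signs turned for 2 genes near 0: Tgfbr1 had 0.028 with GC content and length corrected for and -0.12 to 0.0057 with libraries left out, and Smad4 -0.019 to 0.14. The causes were not tested. Same-numbered libraries did not deviate together (correlations -0.152, -0.00210 and 0.0174), so the numbers were not taken as pairs. With the replicate block, in which control 4 has no partner, Tgfbr3 had 0.51, Tgfbr2 0.54 and Ski 0.52, none called, and 14 of all genes were called against 231. Eng, Hgs, Runx3, Foxo3 and E2f4 were not called with it (adjusted p 0.110 to 0.178). Over all genes, 3 were called without control 2, control 3 or Jmjd1c 2, and 9 without Jmjd1c 3. Without control 1 the count was 68, without control 4 it was 202, and without Jmjd1c 1 it was 624. It was 590 with DESeq2, 233 with edgeR and 94 with GC content and length corrected for. No gene was called without an intensity trend (2213 at an unadjusted p under 0.05). Smad7 and Tgfb1 fell below the filter of 50.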

Other observations

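Some values outside the comparisons were noticed after they were seen and are given without a test. Thbs1, which encodes thrombospondin 1, a platelet protein known to activate latent TGF-beta, was at 768 normalized read counts in Jmjd1c 3, against 4.14 and 4.12 in Jmjd1c 1 and 2 and 4.0 to 11.4 in the control libraries, and did not pass the filter on low values. The 10 megakaryocyte and platelet markers summed to 1173 in Jmjd1c 3, 796 and 920.2 in Jmjd1c 1 and 2, and 704 to 851 in the control libraries. The part of such cells in the Thbs1 value was not tested.

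Ratios within a library do not depend on its size factor. The ratio of Ski to Skil, per kb of exon, was 0.571 ± 0.130 in the control libraries (SD, n = 4; 0.472 to 0.761) and 0.890 ± 0.0475 in the Jmjd1c libraries (SD, n = 3; 0.848 to 0.941). That of Tgfbr2 to Tgfbr1 was 0.335 to 0.522 in control and 0.525 to 0.608 in Jmjd1c libraries, and that of Tgfbr3 to Tgfbr1 was 0.166 to 0.320 and 0.351 to 0.448. For these 3 ratios the groups did not overlap, while for Smad3 to Smad2 they did (0.650 to 1.02 and 0.845 to 1.06). The ratios were chosen after the values were seen, so the separation is a description. For Tgfbr2 to Tgfbr1 the nearest libraries were control 4 (0.522) and Jmjd1c 2 (0.525). Groups did not overlap in 16.8% of single tested genes, and the share among ratios of other genes was not computed.

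Among TGF-beta target genes outside the naming rule, the cell cycle inhibitor gene Cdkn1a was at 43.1 to 67.6 in control and 72.0 to 84.5 in Jmjd1c libraries (log2 fold change 0.54; limma, adjusted p = 0.148). Id2, an inhibitor of E proteins, was at 739 in control 4, 366 to 415 in controls 1 to 3 and 248 to 411 in Jmjd1c libraries (-0.63; adjusted p = 0.169).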
